A study of Mus musculus with 2 samples.

Results

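The genes described here are 9 genes of the Nodal signalling pathway in mouse CGR8 embryonic stem cells: Nodal, Gdf3, Tdgf1, Lefty1, Lefty2, Smad2, Smad3, Foxh1 and Skil. They were chosen by name, as pathway components and feedback targets, with earlier results of these data known. All 9 were found among the 22421 genes of the series. Where a gene had several RefSeq transcripts, the transcript with the highest summed value stood for it. CGR8 is an established feeder-free line, grown here on gelatin in serum with leukaemia inhibitory factor. The cells received either a negative siRNA, called control siRNA here, or a Set1a siRNA. Set1a, listed as Setd1a, encodes a histone H3 lysine 4 methyltransferase. The transfection label gives 72 hours for both groups, and the comparison asked what lowering SET1A does to transcript levels. Each group held 1 library, so no difference below has a replicate check, and none has a p-value.

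Nodal is a secreted ligand of the TGF-beta family. Together with the co-receptor Cripto, the product of Tdgf1, it engages activin receptors, which phosphorylate SMAD2 and SMAD3. These join SMAD4 and bind DNA with partners such as FOXH1. Nodal, Lefty1 and Lefty2 are themselves targets of this signal, and the Lefty proteins are secreted inhibitors that block Nodal, so the pathway carries its own negative feedback. Embryonic stem cells are known to express ligand, co-receptor and inhibitors at the same time.

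Levels are given in RPKM, read numbers scaled by transcript length and library depth. Recovered depths were close to 6650000 reads (control siRNA) and 6400000 reads (Set1a siRNA). The targeted gene Setd1a measured 14.2 RPKM with control siRNA and 11.97 RPKM with Set1a siRNA, a ratio of 0.846. Its log2 fold was -0.22, and 1781 genes (15.1% of those past the floor described further down) fell more. A drop of this size was thus not rare, and whether the siRNA lowered Setd1a was not tested. The 95% counting interval of the Setd1a ratio ran from 0.745 to 0.959. It lay below 1, as did the intervals of 11.3% of all genes. Such intervals are exact binomial (Clopper-Pearson) intervals from the recovered reads and cover counting error only. The 5 embryonic stem cell markers Pou5f1, Nanog, Sox2, Zfp42 and Esrrb summed to 1812 and 1782 RPKM. Of these, Sox2 read 283 and 248 RPKM, with a ratio of 0.875 (0.835 to 0.917) and a log2 fold of -0.19, while the intervals of the other 4 included 1. Some markers of other cell types moved as well. The 5 genes of the 2-cell-like state, an early-embryo programme seen in few cells of such cultures, summed to 10.2 and 126 RPKM. The 5 fibroblast genes summed to 77.5 and 101 RPKM, with Col1a2 at 0 in both libraries. Vim, which other cell types express too, read 73.4 and 93.5 RPKM and Twist1 1.66 and 3.25 RPKM, with ratios of 1.27 (1.17 to 1.38) and 1.96 (1.07 to 3.69). Thy1 had a ratio of 1.59 (0.966 to 2.66), and Col1a1 had 3 and 14 reads, with an interval of 1.47 to 37.7. The mesendoderm genes summed to 3.69 and 5.24 RPKM, with Mesp1 at 0 in both, and no definitive or primitive endoderm marker exceeded 0.974 RPKM. The 5 primed epiblast genes summed to 48.3 and 44.1 RPKM, and the 4 neural genes to 4.35 and 4.82 RPKM. The 5 trophectoderm genes summed to 10.5 and 13.0 RPKM, with Cdx2 and Elf5 at 0 in both libraries. Eomes, at 2.55 and 3.77 RPKM, is part of both the mesendoderm and the trophectoderm sums, with a ratio of 1.48 (1.05 to 2.09). Every other mesendoderm, endoderm, primed epiblast, trophectoderm and neural marker had an interval that included 1. The part of these cells in the results below was not tested. In bulk RNA, fewer cells of a type and less RNA per cell cannot be told apart.

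Lefty1 and Lefty2 are close relatives, which bears on how far their values are separate. Their coding sequences of 1107 bases each were 91.9% identical, with 90 differing bases and a longest identical run of 140 bases, by the GENCODE M21 transcripts. The stretch of 90 bases where they differ most, coding bases 35 to 124 counted from the A of the start codon, is shown 5′ to 3′, with the 27 differing bases in capitals.
Lefty1: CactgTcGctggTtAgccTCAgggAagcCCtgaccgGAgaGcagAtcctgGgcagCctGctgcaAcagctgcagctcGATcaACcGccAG
Lefty2: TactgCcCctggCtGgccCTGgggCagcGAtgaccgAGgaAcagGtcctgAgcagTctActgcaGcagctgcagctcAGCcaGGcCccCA
Reads from here can be told apart, while a read inside an identical run fits either gene.
Of all 50-base windows of the Lefty1 transcript, 17.9% were also present in Lefty2, and 11.6% of those of Lefty2 were present in Lefty1. With windows of 36 bases the shares were 23.0% and 15.0%, and with windows of 100 bases 4.80% and 3.07%. Read length and the treatment of reads with several matches are not known here, so each Lefty value may hold reads of the other gene. Among the other members, 12.5% of the 50-base windows of Tdgf1 were shared with its pseudogene Tdgf1-ps1 and 2.02% of those of Gdf3 with other transcripts. Nodal, Smad2, Smad3, Foxh1 and Skil shared none.

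RefSeq promoter entries (GRCm38.p6) were matched for 3 of the 9 members, Nodal, Tdgf1 and Smad3. The 250 bases before each start are printed on the strand of the gene to show what lies at the starts of a ligand, its co-receptor and a transducer. Capitals mark the letters CAGAC or their reverse complement GTCTG, the short SMAD box.
Nodal, chr10:61417722-61417971, plus strand: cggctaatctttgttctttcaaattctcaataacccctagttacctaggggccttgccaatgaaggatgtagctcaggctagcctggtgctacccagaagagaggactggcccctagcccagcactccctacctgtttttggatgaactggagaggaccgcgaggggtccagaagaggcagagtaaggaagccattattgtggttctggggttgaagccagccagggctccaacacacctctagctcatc
Tdgf1, chr9:110946159-110946408, minus strand: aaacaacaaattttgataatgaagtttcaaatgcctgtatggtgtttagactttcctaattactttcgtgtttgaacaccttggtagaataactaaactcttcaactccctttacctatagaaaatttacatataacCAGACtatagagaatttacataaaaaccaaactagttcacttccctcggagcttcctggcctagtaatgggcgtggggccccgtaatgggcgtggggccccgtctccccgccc
Smad3, chr9:63757995-63758244, minus strand: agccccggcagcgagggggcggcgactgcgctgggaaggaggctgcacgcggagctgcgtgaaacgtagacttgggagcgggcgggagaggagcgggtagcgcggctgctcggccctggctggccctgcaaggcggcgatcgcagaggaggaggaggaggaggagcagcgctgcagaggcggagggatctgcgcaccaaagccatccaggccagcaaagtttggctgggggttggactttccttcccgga
The Tdgf1 window held 1 SMAD box, and the windows of Nodal and Smad3 held 0, while 42.2% of all 32851 promoter windows of this length held at least 1. The SMAD palindrome GTCTAGAC and the FOXH1 motif AATNCACA (TGTGNATT on the other strand) were found in none of the 3, against 0.167% and 3.18% of all windows. These motifs were searched on both strands, and shorter forms of them were not searched. Sequence outside these 250 bases was not searched either, so sites elsewhere in or near these genes would be missed. The SMAD palindrome holds neither CAGAC nor GTCTG. The windows differed in CpG content, the dinucleotide that the CFP1 subunit of SET1 complexes binds when unmethylated: Nodal had 3 CpGs, Tdgf1 had 7 and Smad3 had 22, with a median of 6 over all windows.

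None of the 9 genes was far from its control level. All 9 passed the floor of a mean of at least 1 RPKM, and 0 of 9 was at least 1.5-fold higher or lower on the log2(RPKM + 1) scale. Among all 11802 genes above the floor, 4.52% were past 1.5-fold and 1.18% were past 2-fold, so a count of 0 among 9 genes is near the background. The members had 4 genes higher and 5 lower, with a median log2 fold of -0.04, against 0.0063 over all genes. Counting error alone was exceeded by 4 of the 9, with 2 intervals above 1 (Nodal and Tdgf1) and 2 below 1 (Lefty1 and Lefty2). That is 44.4% of the members. The same held for 23.5% of all genes above the floor. It held for 27.8% of the 7551 genes within the members' range of reads (198 to 13645 over both libraries). Those genes were not matched to the members within this wide range, and intervals are narrower at higher read numbers.

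**Figure D1:**
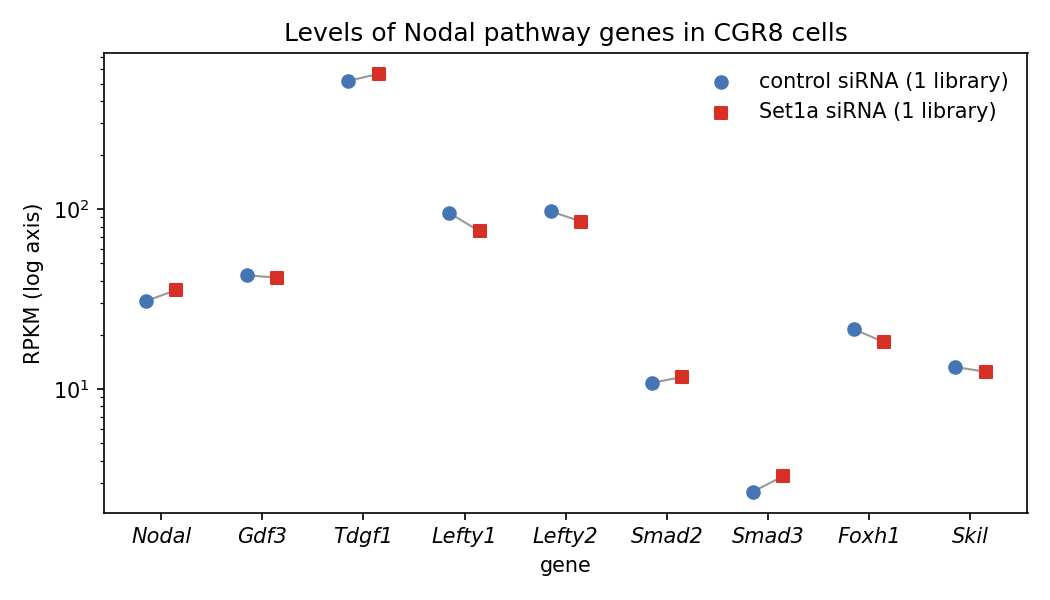
Level of each of the 9 genes in RPKM (log axis) in the control siRNA library (circles) and the Set1a siRNA library (squares), 1 library each, with no error bars because there are no replicates. The order of the 9 genes is the same in both libraries, from Tdgf1 at 517 and 566 RPKM to Smad3 at 2.69 and 3.27 RPKM.

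Nodal, the ligand, measured 30.9 RPKM with control siRNA and 35.5 RPKM with Set1a siRNA. The Set1a siRNA library was the higher one, with 477 reads against 430, a ratio of 1.15 (counting interval 1.01 to 1.32). Among all genes above the floor, 19.9% had a higher log2 fold than Nodal at 0.20. With the trend of the folds in GC content and transcript length removed, its interval ran from 0.973 to 1.27 and included 1. Gdf3, a related ligand that also signals through Cripto and has been described as an inhibitor of BMP, was at 42.9 and 41.6 RPKM. Its ratio was 0.971 (0.864 to 1.09), so the 2 libraries differed by less than counting error.

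Tdgf1, the co-receptor gene, was the most abundant of the 9, with a level above that of 99.0% of genes. It measured 517 RPKM with control siRNA and 566 RPKM with Set1a siRNA. The ratio was 1.09 (1.06 to 1.13), from 6650 and 6995 reads. The difference is small, but the depth behind it makes it the most precisely counted of the members. Of all genes, 28.7% had a higher fold.

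The feedback inhibitors went the other way. Lefty1 measured 95.2 RPKM with control siRNA and 75.2 RPKM with Set1a siRNA, from 1025 and 780 reads. This was the largest difference among the 9 on the log2 scale, at -0.33, with a ratio of 0.791 (0.719 to 0.869). Of all genes above the floor, 884 (7.49%) had a lower fold. Lefty2 was at 97.4 and 85.4 RPKM, for a ratio of 0.877 (0.815 to 0.943), from 1603 and 1353 reads. Its log2 fold was -0.19, and 18.9% of genes had a lower one. Lefty1 and Lefty2 together had 2628 and 2133 reads, which scaled by library depth is a ratio of 0.843 (0.796 to 0.893). Their summed levels were 193 and 161 RPKM, with a ratio of 0.834. If each read was counted once, which is not known here, a read at the wrong gene of the pair leaves the read total unchanged. The change of Lefty1 was not separated from that of Lefty2: the ratio of Lefty1 to Lefty2 was 0.977 and 0.881, and its change of 0.902 had an interval of 0.800 to 1.02.

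Of the intracellular genes, no interval excluded 1 as deposited. Smad2, the more abundant receptor-activated SMAD, was at 10.8 and 11.7 RPKM, for a ratio of 1.08 (0.959 to 1.21). Smad3 was at 2.69 and 3.27 RPKM, and its ratio of 1.22 is the highest among the 9. With 91 and 107 reads its interval, 0.913 to 1.63, was also the widest of the 9, and the difference was not detectable at this depth. Foxh1, the DNA-binding partner, was at 21.5 and 18.2 RPKM, for a ratio of 0.845 (0.681 to 1.05) from 195 and 159 reads. With the GC and length trend removed its interval ran from 0.650 to 0.999, just below 1. Skil, which encodes the SMAD repressor SNON and is itself a target of the signal, was at 13.3 and 12.5 RPKM, for a ratio of 0.940 (0.834 to 1.06). Its other listed transcript gave 13.2 and 12.3 RPKM, nearly the same values, and reads of the shared exons may be counted at both.

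**Figure D2:**
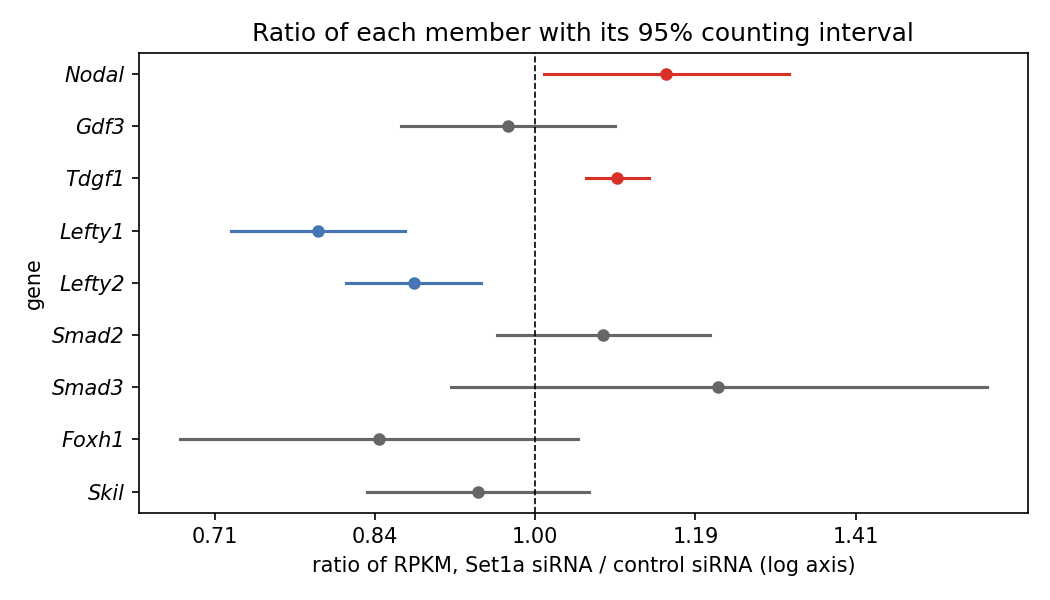
Ratio of RPKM in the Set1a siRNA library to the control siRNA library (log axis) for each of the 9 genes, with points for the ratio and bars for the 95% counting interval; red intervals lie above 1, blue below 1, and grey ones include 1. Lefty1 (0.791) and Lefty2 (0.877) lie below 1, and Nodal (1.15) and Tdgf1 (1.09) above it.

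The order of the levels was the same in both libraries: Tdgf1, Lefty2, Lefty1, Gdf3, Nodal, Foxh1, Skil, Smad2 and Smad3. There are no replicates to give a spread, so neighbours were compared by the counting intervals of their levels. Lefty2 and Lefty1 overlapped in the control siRNA library (92.7 to 102 and 89.4 to 101 RPKM). In the Set1a siRNA library the intervals just parted, at 80.9 to 90.1 RPKM for Lefty2 and 70.1 to 80.7 RPKM for Lefty1. Gdf3 and Nodal were apart in the control siRNA library and overlapped in the Set1a siRNA library, at 38.3 to 45.2 and 32.4 to 38.9 RPKM. Skil and Smad2 also overlapped only in the Set1a siRNA library, and every other pair of neighbours was apart in both. Where the overlap differed between the libraries, the change of the pair's level ratio still had an interval that included 1. It was a factor of 1.19 (0.993 to 1.42) for Nodal over Gdf3 and 0.873 (0.736 to 1.03) for Skil over Smad2. For Lefty1 over Lefty2 it was 0.902 (0.800 to 1.02).

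The levels of inhibitor and ligand can be set against each other within a library, where depth cancels. In the control siRNA library, the Lefty1 level was 3.08 times that of Nodal, and in the Set1a siRNA library 2.12 times. That ratio changed by a factor of 0.686, with an exact conditional interval of 0.583 to 0.808. For Lefty2 over Nodal the level ratios were 3.16 and 2.40, a factor of 0.761 (0.654 to 0.886). Against Smad2 the Lefty1 level ratio went from 8.79 to 6.46, a factor of 0.734 (0.631 to 0.852), and against Tdgf1 from 0.184 to 0.133, a factor of 0.723 (0.654 to 0.800). Tdgf1 over Nodal stayed closer, at 16.8 and 15.9, a factor of 0.949 (0.827 to 1.09). Against Gdf3, Skil and Foxh1 the Lefty2 factors were 0.903 (0.786 to 1.04), 0.933 (0.811 to 1.08) and 1.04 (0.825 to 1.30). The interval excluded 1 in 6 of the 8 pairs of Lefty1 and in 4 of the 8 pairs of Lefty2.

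All 36 pairs of the 9 genes were compared in this way, and the interval excluded 1 in 15 of them (41.7%). Among all pairs of the 7551 genes in the same range of reads, not matched within it, 27.5% did so by a normal approximation. By that approximation the members had 16 of 36 (44.4%). Of the 15 pairs, 10 held Lefty1 or Lefty2 and 5 held neither, out of 21 pairs without a Lefty gene. The 5 were Nodal with Foxh1, Nodal with Skil, Tdgf1 with Foxh1, Tdgf1 with Skil, and Smad3 with Foxh1. The pairs share genes, and the intervals are not adjusted for their number.

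**Figure D3:**
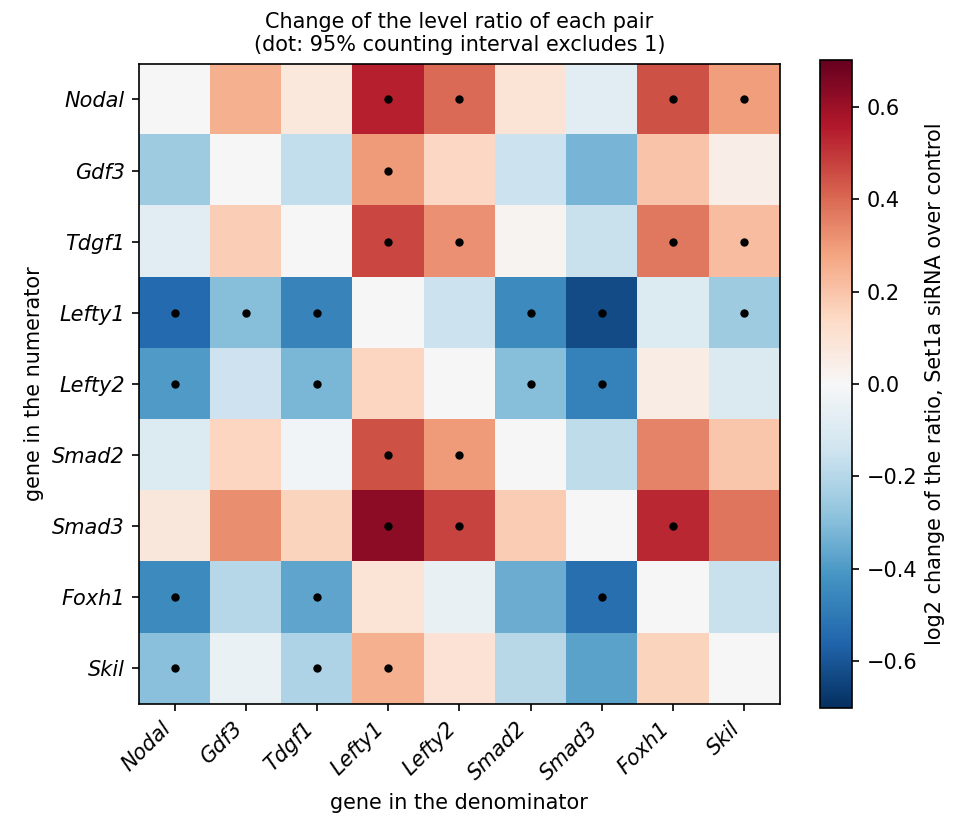
Change of the level ratio of each pair of the 9 genes between the libraries, on the log2 scale; rows give the gene in the numerator, columns the gene in the denominator, and dots mark a 95% counting interval that excludes 1. The Lefty1 row is below 0 against every other gene, down to a factor of 0.649 against Smad3, but its interval includes 1 against Lefty2 and Foxh1.

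**Figure D4:**
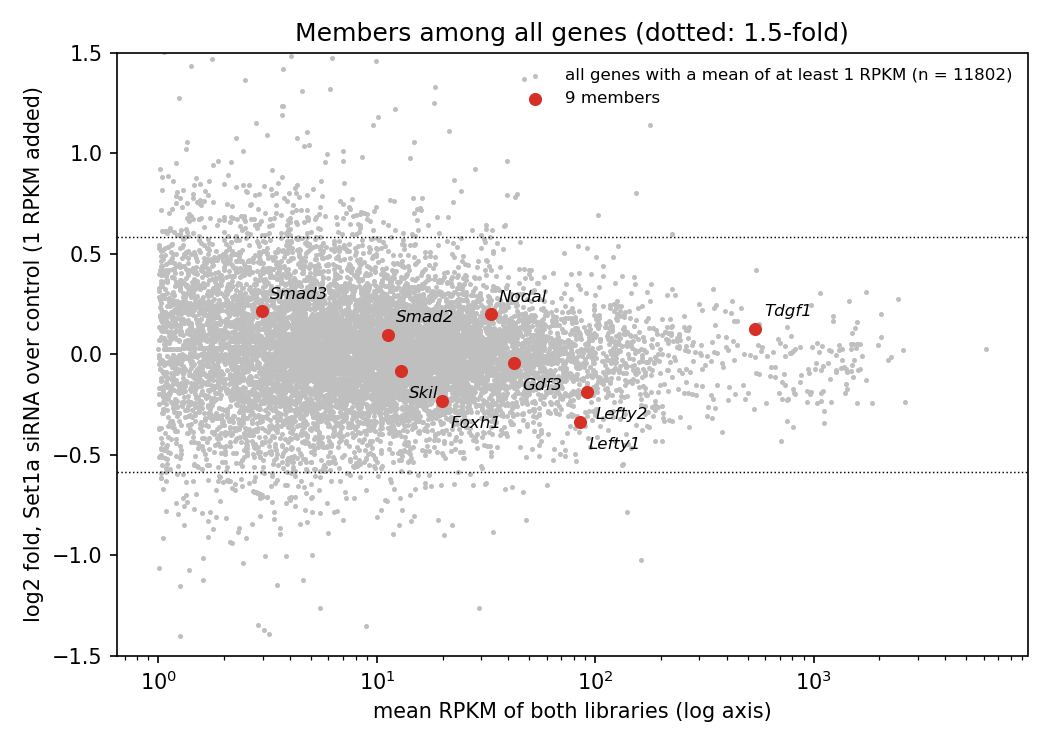
Log2 fold with 1 RPKM added against the mean RPKM of both libraries (log axis) for the 11802 genes above the floor (grey) and the 9 members (red, named); dotted lines mark 1.5-fold, and 88 genes lie outside the vertical range. All 9 members lie between the dotted lines, from -0.33 for Lefty1 to 0.21 for Smad3.

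By their values in the 2 libraries, the genes nearest to Lefty1 on the log2(RPKM + 1) scale were Gm14308 at a Euclidean distance of 0.015, Atp5k at 0.043 and Churc1 at 0.068. With 2 libraries this likeness holds only a level and a difference. Gm14308 was at 95.5 and 76.0 RPKM, Atp5k at 95.7 and 73.1 RPKM, and Churc1 at 91.2 and 73.6 RPKM.

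Beyond the 9 members, 53 other genes of the Nodal, activin and TGF-beta pathway were listed by role, and all 53 were found. With Set1a siRNA, 22 of the 37 measured above the floor read higher and 15 read lower, and their median log2 fold was 0.07, or 0.03 with the GC and length trend removed. Over all genes above the floor, 6043 read higher and 5759 lower. Only Cer1 was past 1.5-fold, and it was lower. Its mean passed the floor only through its control siRNA value, and without Cer1 the count was 0 of 36. By counting intervals 6 (Inhbb, Tmeff1, Nomo1, Eomes, Smad7 and Tgif2) were above 1 and 1 (Cer1) below 1, where 12.2% of all genes lay above and 11.3% below.

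Among the other ligands and convertases, 5 of 10 were above the floor and all 5 were higher, 1 with an interval above 1. Inhbb, which encodes a subunit of activin B, was at 17.1 and 22.3 RPKM, for a ratio of 1.30 (1.15 to 1.47). Tgfb1, the TGF-beta ligand, was at 2.08 and 3.27 RPKM, and its interval of 0.971 to 2.58 included 1. Of the proprotein convertases that cleave the Nodal precursor, Pcsk6 was at 20.4 and 22.8 RPKM and Furin at 2.81 and 3.36 RPKM, with intervals that included 1. Inhba, for the subunit of activin A, was listed at 0 in both libraries; it is named outside the rule.

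Of the 8 receptor genes, 4 were above the floor, 1 higher and 3 lower, and all 4 intervals included 1. Acvr1b, the type I receptor of Nodal known as ALK4, was at 13.2 and 15.1 RPKM, for a ratio of 1.14 (0.995 to 1.32). The type II receptor genes Acvr2b and Acvr2a had ratios of 0.802 (0.627 to 1.02) and 0.960 (0.748 to 1.23). Tgfbr1 had a ratio of 0.945 (0.823 to 1.09). The other type I receptor gene Acvr1c was listed at 0 in both libraries, and the co-receptor gene Cfc1 had 6 and 3 reads. Acvr1c and Cfc1 are no part of the naming rule and were picked with their values in view.

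The other extracellular inhibitors did not move as one group, with 2 of 5 measured genes higher and 3 lower. Cer1, which encodes the secreted Nodal and BMP antagonist Cerberus and is also a target of Nodal, was at 2.07 and 0.894 RPKM. That rests on 24 and 10 reads, a ratio of 0.432 (0.184 to 0.938), and with 5 RPKM added to each value Cer1 was not past 1.5-fold. Dand5, another gene of the Cerberus family, was at 1.47 and 1.02 RPKM, with an interval of 0.282 to 1.62. Tmeff1, a transmembrane protein that binds Cripto, was at 51.9 and 60.8 RPKM, for a ratio of 1.17 (1.07 to 1.29). Nomo1, of a complex that antagonises Nodal, had a ratio of 1.12 (1.002 to 1.25).

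Among 7 measured genes of the transducer list, 4 were higher and 3 lower. Eomes, a T-box factor that works with SMAD2 and SMAD3, was at 2.55 and 3.77 RPKM, for a ratio of 1.48 (1.05 to 2.09) from 60 and 86 reads. Smad4, the common partner SMAD, had a ratio of 1.10 (0.959 to 1.27), Trim33 of 0.914 (0.781 to 1.07) and Zfyve9, an anchor for SMAD2 at the receptor, of 1.08 (0.766 to 1.53). A list of 14 intracellular regulators was wholly above the floor, with 8 higher, 6 lower and a median log2 fold of 0.02. It holds Rnf111, Usp9x and Usp15, enzymes of the ubiquitin cycle that are known to favour the signal; without these 3, 7 inhibitors were higher and 4 lower, with a median of 0.06. All 3 had intervals that included 1. Smad7, the inhibitory SMAD induced by the pathway, was at 20.5 and 25.9 RPKM, for a ratio of 1.27 (1.13 to 1.42). Tgif2, a SMAD corepressor, had a ratio of 1.19 (1.02 to 1.39). Pmepa1, an induced inhibitor of SMAD recruitment, had a ratio of 1.28 (0.960 to 1.71), and Nedd4l, a ubiquitin ligase for SMAD2 and SMAD3, of 0.905 (0.680 to 1.20).

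The list of genes induced by Nodal or its relatives repeats some of these. Of its 12 genes, 6 were above the floor, 5 higher and 1 lower, with a median log2 fold of 0.29, against 0.0063 over all genes. By counting intervals 2 lay above 1, 1 lay below 1 and 3 included 1, where 12.2% of all genes lay above and 11.3% below. Eomes, Smad7, Pmepa1 and Ccn2 were among the higher genes, and the lower one was Cer1. The list leaves out the members that are themselves targets: Nodal read higher, and Lefty1, Lefty2 and Skil read lower. Ccn2 was at 7.63 and 9.66 RPKM, for a ratio of 1.27 (0.989 to 1.62). The feedback targets Lefty1 and Lefty2 and the feedback inhibitor gene Smad7 thus lay on opposite sides of 1, with intervals that excluded 1 on either side. Smad7 is also known as a target of BMP signalling, and whether that bears on its value here was not tested.

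**Figure D5:**
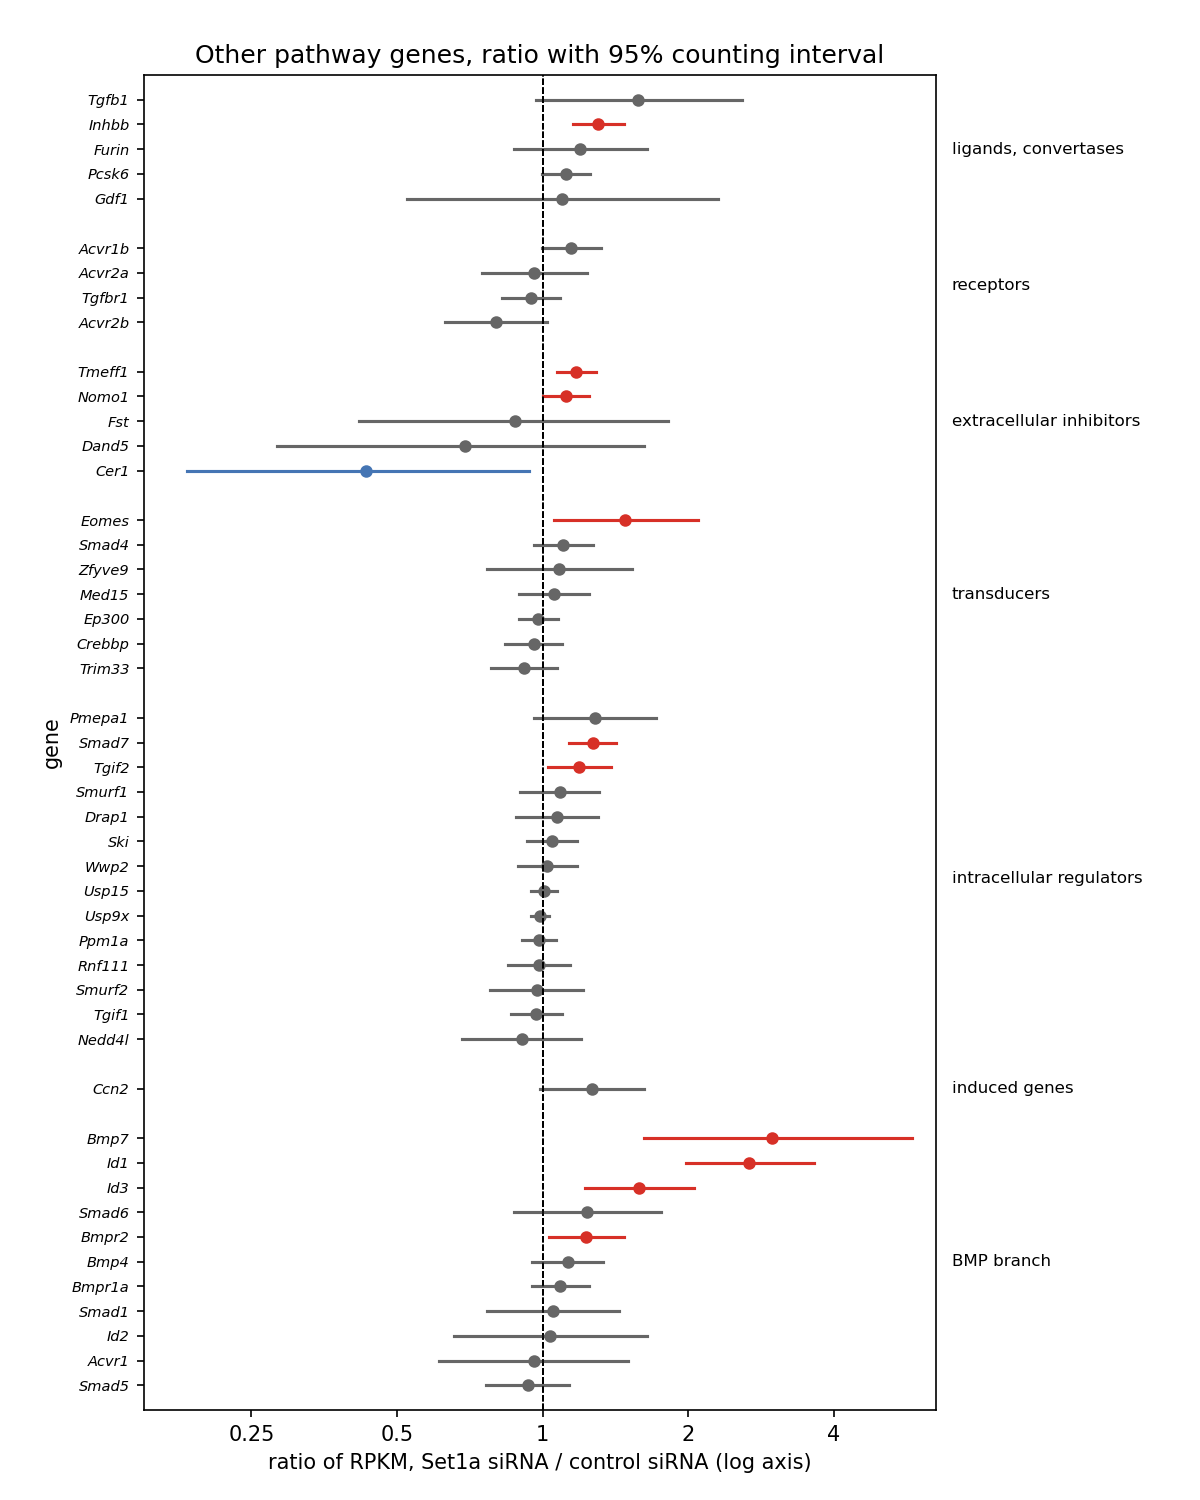
Ratio of RPKM in the Set1a siRNA library to the control siRNA library (log axis) with 95% counting intervals for measured genes of each list except 1, a gene of several lists being drawn once, under the first; red intervals lie above 1, blue below 1, and grey ones include 1. Cer1 (0.432) lies lowest and Bmp7 (2.98) highest.

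The BMP branch, which uses other ligands, receptors and SMADs, stood beside these. Its list, like the other lists, was chosen with earlier results of these data known. The shares of all genes beside its counts are therefore a description and no test. Of its 16 genes, 11 were above the floor, 9 higher and 2 lower, with a median log2 fold of 0.17, and 4 intervals lay above 1, where 12.2% of all genes did. Past 1.5-fold were Id1, at 10.1 and 26.8 RPKM, Bmp7, at 0.611 and 1.82 RPKM, and Id3, at 11.98 and 18.96 RPKM, that is 3 of 11 where 2.77% of all genes were 1.5-fold higher. The fourth was Bmpr2, a type II receptor gene named with its value in view, with a ratio of 1.23 (1.03 to 1.47). Bmp7 entered only through its Set1a siRNA value, and without it 2 of 10 were past 1.5-fold and 3 intervals lay above 1, with a median of 0.14. With 5 RPKM added to each value, 1 BMP gene, Id1, was past 1.5-fold. Smad6, the inhibitory SMAD of that branch, had a ratio of 1.23 (0.871 to 1.75). Whether the Nodal and BMP genes differ in their change was not tested, as there is 1 library per group.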

How the data were processed

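RNA selection, read length and read counting are not stated in the labels. Total RNA of 2 cultures, 1 library per group, was sequenced, and the submitters' processing notes name SAMtools 0.1.16, TopHat2 2.0.12, TopHat and CASAVA, and build mm9. The deposited tables hold 1 value for each of 28430 transcripts and no header; that the authors' unit is RPKM was inferred from the values. Depth was recovered from the whole-read steps of low values: 74.8% and 73.9% of transcripts with 1 to 5 reads came within 0.1 of whole numbers (20% for random values). Lengths came from GENCODE M21, so read numbers are approximate. Symbols came from RefSeq (GRCm38.p6) for 27789 transcripts and GENCODE for 168. Folds are log2((Set1a siRNA RPKM + 1)/(control siRNA RPKM + 1)). Intervals were tested on simulated counts. The members and lists were chosen with earlier results of these data known. Values of 1 list gene are not reported here. Named besides the members were up to 4 genes of each list with the largest absolute fold and any past 1.5-fold. Backgrounds by read range, the pairs and the counts without Bmp7, Cer1 or 3 regulators were added after the values were seen. Alternatives varied the pseudocount, floor, scaling, transcript choice and GC and length trend. Python 3.11.15, NumPy 2.4.6, pandas 2.3.3, SciPy 1.17.1, Biopython 1.88 and matplotlib 3.10.9 were used.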

Additional observations from a re-analysis of the deposited data

How the results depend on the processing

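All 9 members kept their direction in each of the 7 other settings of pseudocount, scaling, transcript choice and GC and length trend. A pseudocount added to both values cannot reverse a direction. The choice of transcript could change only Skil, as each other member had 1 transcript. Lefty1 ranged from -0.41 to -0.32 on the log2 scale, Lefty2 from -0.20 to -0.18, Nodal from 0.15 to 0.20 and Tdgf1 from 0.12 to 0.16. A scaling could hardly reverse them, as its factors were 1.005 and 0.998. In every setting run, 0 members were past 1.5-fold. A larger pseudocount, another floor or a 2-fold rule could not have raised that count. The number of other pathway genes past 1.5-fold, 1 as reported, was 2 with a pseudocount of 0.1 RPKM and 0 with a pseudocount of 5 RPKM, a floor of 5 RPKM or a 2-fold rule. Of the BMP genes 3 were past 1.5-fold, and 1 with a pseudocount of 5 RPKM or a 2-fold rule, 2 with a floor of 5 RPKM and, as an alternative chosen after seeing the data, 2 without Bmp7. Over all genes, 533 were past 1.5-fold, and 1046 with a pseudocount of 0.1 RPKM, 138 with one of 5 RPKM, 187 with a floor of 5 RPKM and 139 past 2-fold. Removal of the GC and length trend took Nodal out of the 4 members whose interval excludes 1 and brought Foxh1 in. The cause was not tested for these shifts. No paired analysis was possible because there is 1 library per group. Depth limits Smad3, Cer1 and the other genes with few reads most.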
